A study of Mus musculus with 10 samples.

Results

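Collagens and other extracellular matrix genes were analysed in brown adipose tissue (BAT) of control and Stat5Adipoq mice. The genes were chosen by name, with earlier results of these data known. They comprised every gene named Col, a number, a and a number in the authors' table of tested genes, together with Svep1, Fn1, Sparc, Dcn, Lum, Bgn, Fbn1, Eln, Postn, Tnxb, Nid1, Nid2, Lox, Loxl1 and Loxl2. This gave 47 genes, 32 collagens and 15 other matrix genes, of 13568 genes tested and 24454 genes counted. The table holds only genes that passed the filter on low counts, so all 47 passed it by construction. A further 12 collagen genes had between 0 and 40 counts in all 10 libraries together and were not tested, namely Col2a1, Col4a6, Col6a4, Col8a2, Col9a1, Col9a2, Col17a1, Col19a1, Col22a1, Col24a1, Col25a1 and Col26a1.

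BAT of 5 male mice per genotype, 2 months old, on the C57BL/6N strain and fed ad libitum, was profiled by RNA-Seq with 1 library per mouse. In Stat5Adipoq mice, Stat5a and Stat5b were deleted by Cre recombinase under the Adipoq (adiponectin) promoter, which is active in adipocytes of brown and white fat. According to the methods the controls were littermates that carried the floxed Stat5 alleles and no Cre, whereas their labels read wild type. All mice were unstimulated, which the labels call basal. Whole tissue was sequenced, so cells in which this Cre is not active also contributed RNA. The deposited counts on genes amounted to 8488129 to 19514904 per library. Stat5a measured 86.9 to 130 CPM (counts relative to the TMM-scaled library total) in the 5 control libraries and 15.8 to 20.7 CPM in the 5 Stat5Adipoq libraries, and Stat5b measured 76.6 to 91.9 CPM and 21.0 to 22.9 CPM. The 11 brown adipocyte markers were all detected, with Ucp1, the uncoupling protein of brown fat, at 5402 to 13831 CPM in control and 7843 to 12661 CPM in Stat5Adipoq libraries. Markers of skeletal muscle summed to 3853 CPM in control replicate 3 and to 2.5 to 309 CPM in the other 9 libraries, and liver markers to 94.8 CPM there and at most 5.64 CPM elsewhere.

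The extracellular matrix surrounds adipocytes and vessels. Fibrillar collagens, made largely by fibroblasts, form its fibres, whereas a basement membrane of type IV collagen, laminins and nidogens encloses each adipocyte and each capillary. Collagen chains are assembled as trimers, cross-linked by lysyl oxidases and bound by glycoproteins and proteoglycans. SVEP1 is a large secreted glycoprotein with sushi, von Willebrand factor A and EGF-like domains, for which integrin α9β1, PEAR1 and the receptor TIE1 are known binding partners.

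Promoter windows of RefSeq (assembly GRCm38.p6), from 250 bases before to 50 bases after each start, were searched on both strands for TTCNNNGAA, the consensus bound by STAT5, for the TATA box motif TATAAA, for the CCAAT box and for the GC box motif GGGCGG. None of these motifs contains another. A window was held for 33 of the 47 genes. TTCNNNGAA was present in those of 2 of them, Col28a1 and Col6a5 (6.06%), against 8.23% of the 10756 tested genes with a window and 8.3% of all 32851 windows. TATAAA was present for 6 (18.2%) against 9.11% of tested genes and 13.6% of all windows. CCAAT was present for 11 (33.3%) against 42.3% and 37.4%, and GGGCGG for 20 (60.6%) against 67.5% and 35.7%. The windows below belong to the gene that was called lower, to the gene that was called higher, and to Postn and Col28a1, which were next in order of p-value. Only bases outside the exons of coding transcripts are shown, 5′ to 3′ on the strand of the gene, and capitals mark the matches to the 4 motifs within the bases shown. The Svep1 window (chr4:58206597-58206846, minus strand) holds a TATAAA match in reverse 42 bases before the start and lies within an exon of a non-coding Svep1 transcript. The Col4a5 window (chrX:141475169-141475384, plus strand) holds CCAAT 196 bases before the start, and a GGGCGG match 30 bases before it lies in the bases not shown. The Postn window (chr3:54360857-54361106, plus strand) is the second of 2 for that gene and holds TATAAA 26 bases before the start. It lies inside the gene as annotated (chr3:54359267-54391041). The first Postn window, not shown, belongs to the outermost 5′ end and holds CCAAT after its start and no other match. The Col28a1 window (chr6:8192618-8192867, minus strand) holds TTCNNNGAA 104 bases before the start. It lies inside the gene as annotated (chr6:7997100-8193709) and not before its outermost 5′ end.
Svep1: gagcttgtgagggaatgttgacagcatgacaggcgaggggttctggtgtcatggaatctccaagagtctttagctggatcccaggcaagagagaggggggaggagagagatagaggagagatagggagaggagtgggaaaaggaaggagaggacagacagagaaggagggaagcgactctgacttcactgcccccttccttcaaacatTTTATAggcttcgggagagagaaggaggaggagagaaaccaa
Col4a5: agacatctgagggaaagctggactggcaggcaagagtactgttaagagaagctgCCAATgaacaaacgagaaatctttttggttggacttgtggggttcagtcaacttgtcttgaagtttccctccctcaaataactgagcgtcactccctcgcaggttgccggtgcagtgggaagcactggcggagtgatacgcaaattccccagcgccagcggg
Postn: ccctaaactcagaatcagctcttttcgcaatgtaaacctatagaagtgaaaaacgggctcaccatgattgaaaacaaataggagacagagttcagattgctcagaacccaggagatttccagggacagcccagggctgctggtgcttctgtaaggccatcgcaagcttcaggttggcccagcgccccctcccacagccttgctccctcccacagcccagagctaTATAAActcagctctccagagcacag
Col28a1: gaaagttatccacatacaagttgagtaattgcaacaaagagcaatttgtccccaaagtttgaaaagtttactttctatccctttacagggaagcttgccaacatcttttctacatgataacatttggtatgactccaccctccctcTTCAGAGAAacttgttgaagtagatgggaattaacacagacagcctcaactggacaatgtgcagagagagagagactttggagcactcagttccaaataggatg
No TTCNNNGAA match was found in the windows of Svep1, Col4a5 or Postn. A match describes the letters of a window and not binding, and sequence elsewhere in the genes was not searched.

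Svep1 fell and Col4a5 rose in Stat5Adipoq BAT, and these were the 2 genes of the 47 that passed the test. Svep1 was 3.21-fold lower and Col4a5 was 1.82-fold higher. By the quasi-likelihood F test of edgeR, with p-values adjusted over all 13568 genes, 2.71% of all genes were called, 1.31% lower and 1.4% higher. DESeq2 called 5 of the 47 lower, namely Svep1, Col28a1, Col4a1, Col4a2 and Postn, and Col4a5 higher, against 2.46% and 2.4% of all genes. Of the 47 genes, 35 (74.5%) had a log2 fold change below 0, against 50.8% of all genes tested. Their median log2 fold change was -0.17, against -0.0028 for all genes. An unadjusted p below 0.05 was reached by 14 genes, where 15.2% of all genes reached it. Of these, 12 had lower values, where 8.03% of all genes did, and 2 had higher values, where 7.18% did. The libraries did not overlap between genotypes for 3 genes that were lower, Svep1, Col4a2 and Postn, where 2.04% of all genes were so separated, and for 1 that was higher, Col4a5, where 2.35% were. Genes of one matrix share cells of origin and library, so these counts are not independent of each other. In bulk tissue, fewer cells of a type and less RNA per cell cannot be told apart.

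**Figure D1:**
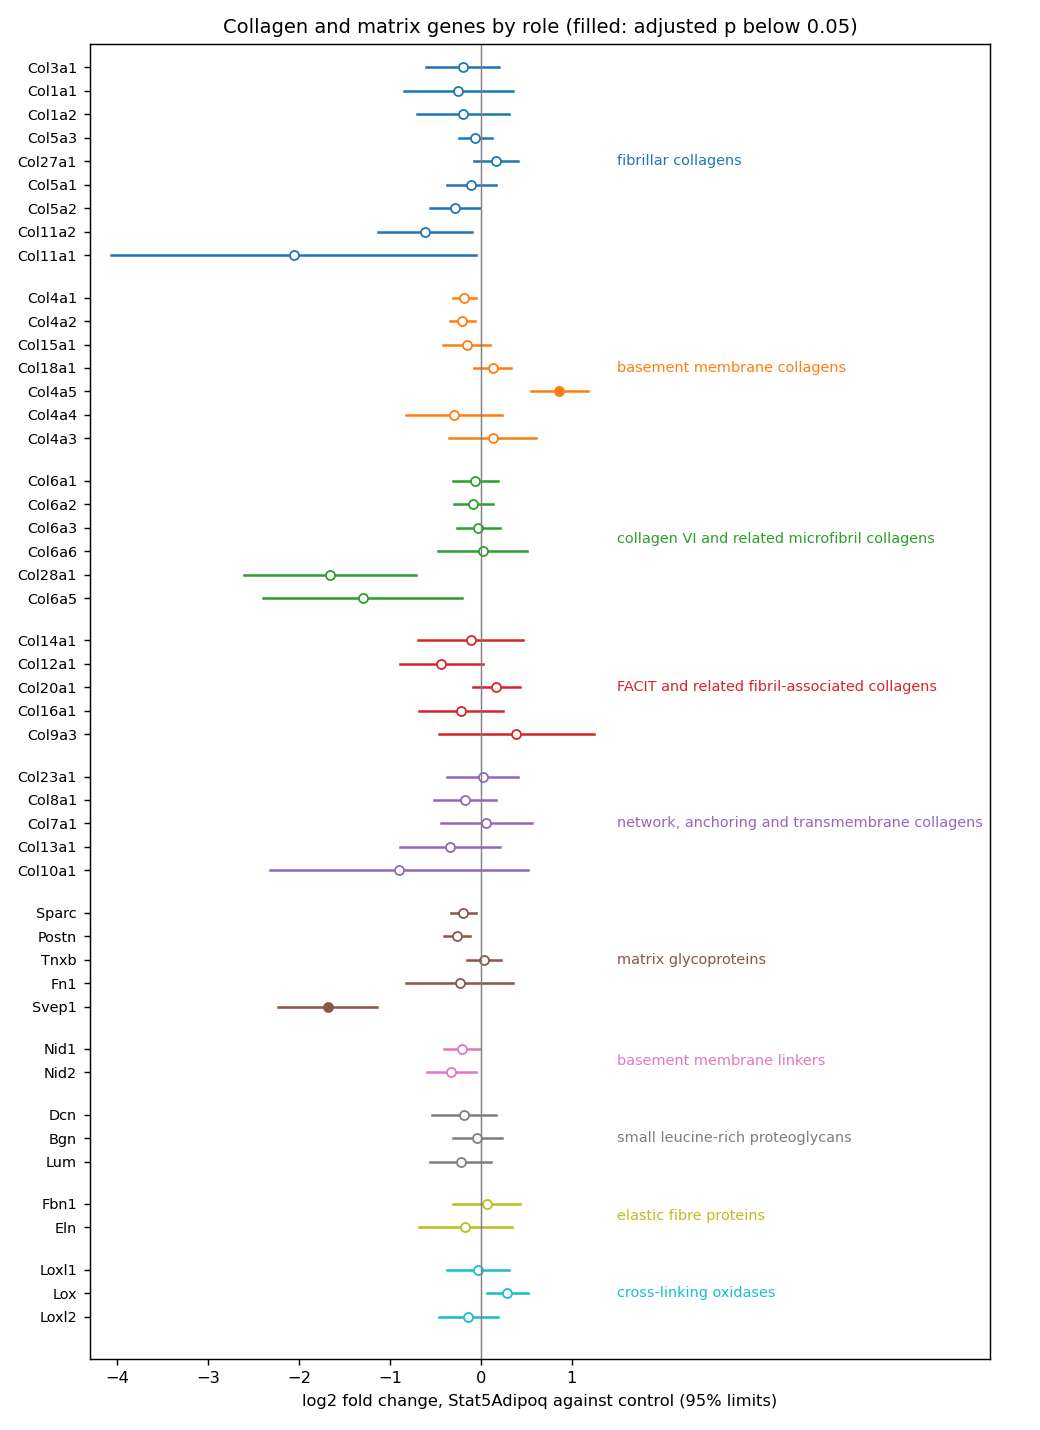
Log2 fold change of Stat5Adipoq against control (horizontal axis) with its 95% confidence limits from edgeR, for 47 matrix genes grouped by role (vertical axis) and ordered within a role by level per exon length. Points are filled where the adjusted p was below 0.05, which holds for Svep1 at -1.68 and Col4a5 at 0.86, and 35 of the 47 points lie left of 0.

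Among the matrix glycoproteins, Svep1 (chr4:58042796-58206596, minus strand) measured 139, 128, 64.2, 141 and 143 CPM in control replicates 1 to 5 and 42.4, 58.6, 23.3, 33.6 and 33.1 CPM in Stat5Adipoq replicates 1 to 5. The genotypes did not overlap, although control replicate 3 lay near the highest Stat5Adipoq library. Control BAT averaged 123 ± 33.3 CPM and Stat5Adipoq BAT 38.2 ± 13.3 CPM (SD, n = 5 each). The log2 fold change was -1.68 (95% limits -2.23 to -1.14, standard error 0.25) with an edgeR adjusted p of 0.0044. An exact two-sided permutation test of the 10 libraries gave an unadjusted p of 0.0079, the smallest that 5 against 5 allow. This value restates the separation of the libraries. It was the same for Col4a5 and for Col4a2 and Postn, which edgeR did not call. Control replicate 3, with the lowest Svep1 of its group, was the library with skeletal muscle and liver markers. Without it the log2 fold change was -1.84 (edgeR adjusted p = 0.00049), so the call did not rest on that library. Gm26889, a non-coding RNA transcribed in the other direction, overlaps 13.9% of Svep1 exon sequence. Libraries were prepared with a stranded kit, but whether counting used the strand was not stated.

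Some markers of mesothelium and white adipocytes were also lower in Stat5Adipoq BAT. Of 7 mesothelial markers, 6 were too low to test, with 0 to 13 counts of these together per library, and Upk3b and Upk1b had 0 counts in all. The seventh, Lrrn4, measured 9.67, 9.53, 5.41, 5.11 and 6.67 CPM in control and 2.82 to 3.28 CPM in Stat5Adipoq libraries and was called lower. Of 8 white adipocyte markers, 5 were tested and 1, Retn, which encodes resistin, was called lower, and their summed level was 113 to 151 CPM in control and 38.3 to 117 CPM in Stat5Adipoq libraries. The part of these cell types in the Svep1 result was not tested. The known partners of SVEP1 did not pass the test. Itga9, the integrin α9 chain, measured 3.16 to 7.89 CPM in control and 3.60 to 6.54 CPM in Stat5Adipoq libraries, and Pear1 had a log2 fold change of -0.01 (95% limits -0.19 to 0.17). Tie1 had one of 0.16 (95% limits -0.09 to 0.41).

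**Figure D2:**
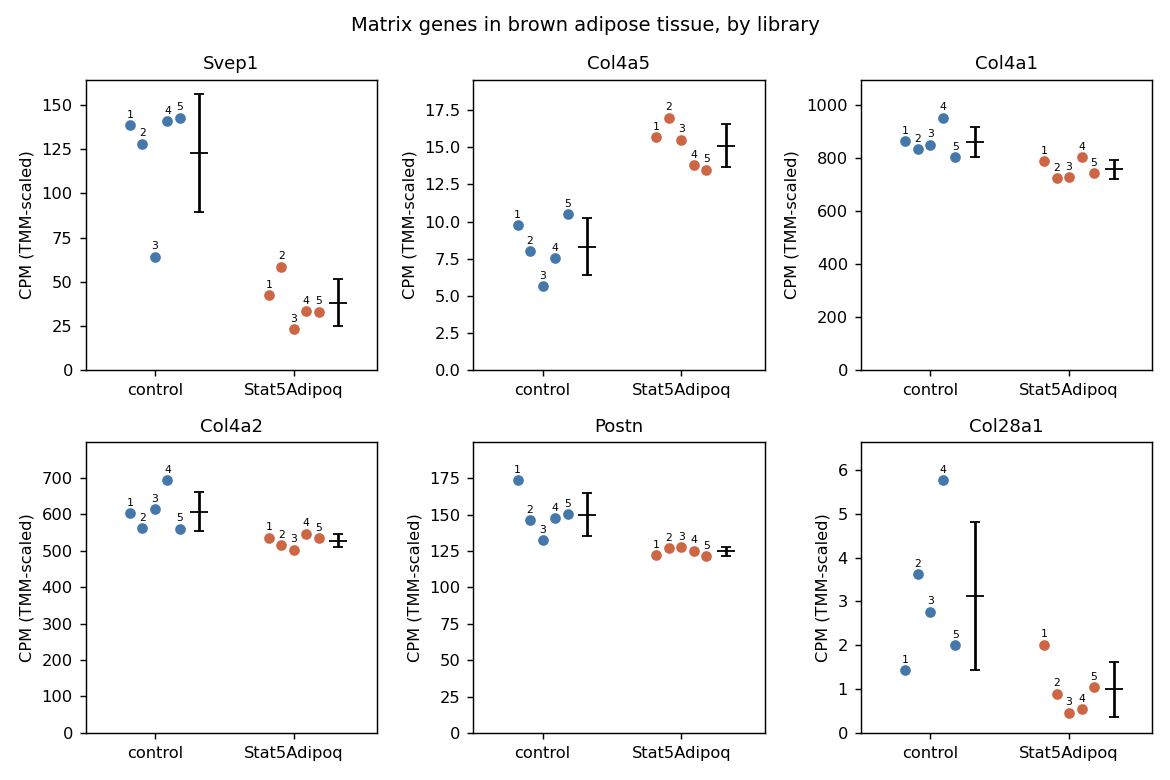
CPM scaled by the TMM method (vertical axes, from 0) in each library of control and Stat5Adipoq BAT for 6 matrix genes. Numbers are replicate numbers and bars show the mean ± SD (n = 5). All Stat5Adipoq points lie below the control points for Svep1, Col4a2 and Postn and above them for Col4a5, while the genotypes overlap for Col4a1 and Col28a1.

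Sparc, which encodes the collagen-binding protein SPARC (osteonectin), had the highest level per exon length of the 47 genes, at 274 RPKM (CPM divided by exon length in kilobases) on average. Svep1 stood at 7.63 RPKM in control and 2.37 RPKM in Stat5Adipoq BAT, or 2.61 ± 0.703% and 0.924 ± 0.313% (SD, n = 5) of the Sparc RPKM of the same library. Sparc measured 1055, 1141, 1076, 1174 and 1080 CPM in control and 1089, 950, 872, 931 and 998 CPM in Stat5Adipoq libraries. The 4 Stat5Adipoq libraries other than replicate 1 were below all controls. The difference, a log2 fold change of -0.19 (95% limits -0.33 to -0.05), did not pass the test (edgeR adjusted p = 0.157). Postn encodes periostin, a matricellular protein that binds collagen and integrins. It measured 173, 146, 132, 148 and 150 CPM in control and 122, 127, 128, 125 and 121 CPM in Stat5Adipoq libraries. The Stat5Adipoq values lay close together, all below the controls. The log2 fold change of -0.27 (95% limits -0.41 to -0.12) just missed the threshold in edgeR (adjusted p = 0.056) and passed it in DESeq2 (adjusted p = 0.0053). Tnxb (tenascin XB) and Fn1 (fibronectin) had log2 fold changes of 0.03 and -0.23, and their libraries overlapped. Transcripts of other genes share 6.47% of the 50-base words of Tnxb.

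Col4a5 was the exception among the basement membrane collagens. It encodes the α5 chain, which is assembled with other type IV chains than α1 and α2. On chrX:141475370-141689236 (plus strand), Col4a5 measured 9.77, 7.99, 5.65, 7.53 and 10.5 CPM in control and 15.7, 17, 15.5, 13.8 and 13.5 CPM in Stat5Adipoq libraries. All Stat5Adipoq libraries exceeded all controls. Control BAT averaged 8.29 ± 1.92 CPM and Stat5Adipoq BAT 15.1 ± 1.45 CPM (SD, n = 5 each), with a log2 fold change of 0.86 (95% limits 0.55 to 1.18, standard error 0.15, edgeR adjusted p = 0.0088, exact permutation p = 0.0079). Its usual partner chains α3 and α4 were among the lowest collagens. Col4a3 measured 1.91 to 3.26 CPM in control and 1.98 to 3.99 CPM in Stat5Adipoq libraries, with a log2 fold change of 0.13 (95% limits -0.35 to 0.61). Col4a4 had one of -0.29 (95% limits -0.82 to 0.23), and Col4a6 was among the collagens with too few counts to test.

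Col4a1 and Col4a2 encode the common α1 and α2 chains and start head to head on chromosome 8 (chr8:11198423-11312889, minus strand, and chr8:11312805-11449287, plus strand). Col4a1 measured 863, 834, 851, 953 and 803 CPM in control and 789, 724, 727, 804 and 744 CPM in Stat5Adipoq libraries, and only control replicate 5 and Stat5Adipoq replicate 4 overlapped, by less than 2 CPM. Col4a2 measured 604, 562, 613, 693 and 561 CPM in control and 536, 515, 503, 547 and 535 CPM in Stat5Adipoq libraries, with no overlap. The log2 fold changes were small, -0.18 (95% limits -0.31 to -0.06) for Col4a1 and -0.20 (95% limits -0.34 to -0.06) for Col4a2. Neither passed the edgeR test (adjusted p = 0.136 and 0.132), and both passed DESeq2 (adjusted p = 0.041 and 0.047). Their ratio of RPKM was 1.26 ± 0.038 in control and 1.27 ± 0.033 (SD, n = 5) in Stat5Adipoq BAT. Per exon length, Col4a5 amounted to 0.738% to 1.45% of Col4a1 in control and 1.90% to 2.61% in Stat5Adipoq libraries. Col15a1 and Col18a1, whose products carry the endostatin-type domains, had log2 fold changes of -0.15 and 0.13 with 95% limits on both sides of 0.

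The nidogens, which link type IV collagen to laminin, also differed little. Nid1 measured 148, 146, 159, 152 and 142 CPM in control and 157, 138, 107, 121 and 123 CPM in Stat5Adipoq libraries. Only Stat5Adipoq replicate 1 reached the control range. The log2 fold change was -0.21 for Nid1 (95% limits -0.40 to -0.01) and -0.32 for Nid2 (95% limits -0.60 to -0.05), and neither passed the test (edgeR adjusted p = 0.296 and 0.240).

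**Figure D3:**
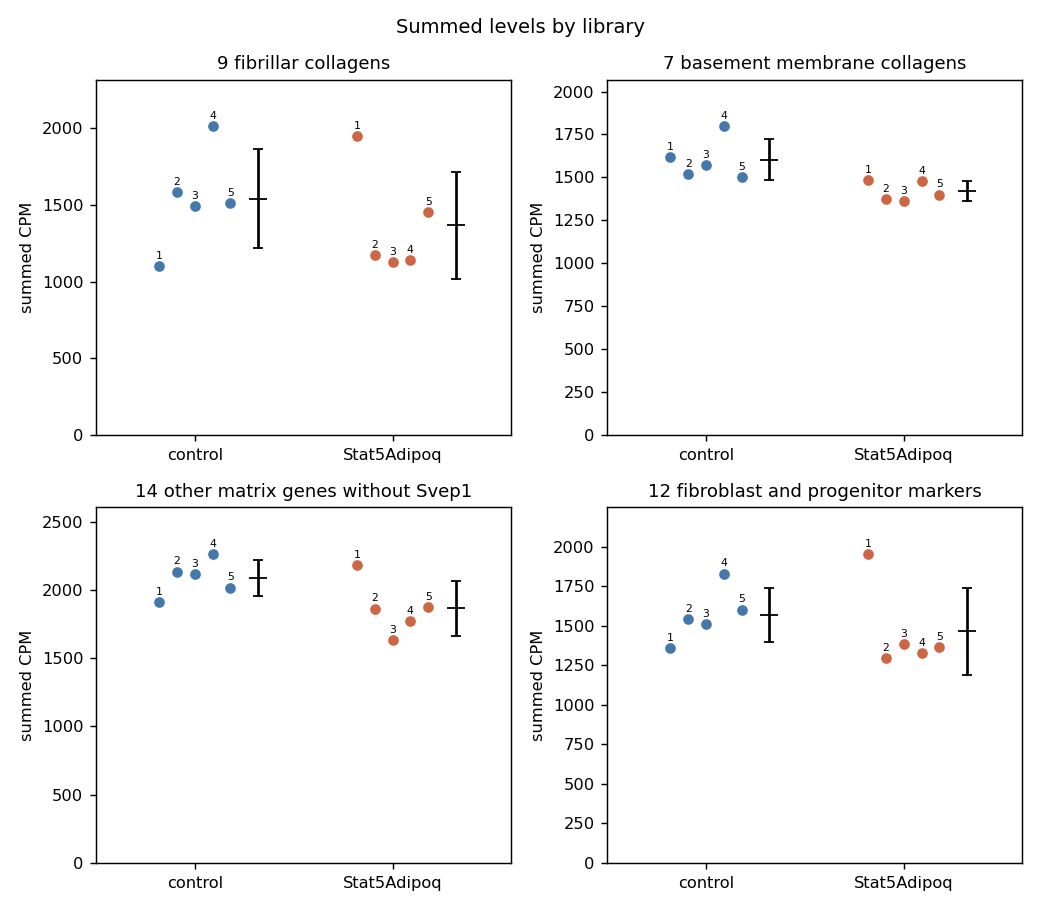
Summed CPM (vertical axes, from 0) of 4 groups of genes in each library of control and Stat5Adipoq BAT, with replicate numbers and the mean ± SD (n = 5). The 9 fibrillar collagens span 1104 to 2013 CPM in control and 1129 to 1946 CPM in Stat5Adipoq libraries, a wider relative spread than the 7 basement membrane collagens.

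None of the 9 fibrillar collagens, which form the tension-bearing fibres, passed the test, and their log2 fold changes ranged from -2.06 to 0.17 with 8 below 0. Col3a1 measured 459, 668, 592, 817 and 587 CPM in control and 826, 480, 428, 443 and 539 CPM in Stat5Adipoq libraries. Col1a1, the α1 chain of type I collagen, measured 152, 292, 264, 425 and 273 CPM in control and 363, 187, 157, 173 and 304 CPM in Stat5Adipoq libraries. For both genes control replicate 1 was the lowest control, control replicate 4 the highest, and Stat5Adipoq replicate 1 lay above all controls for Col3a1 and above all but replicate 4 for Col1a1. The log2 fold changes were -0.20 (95% limits -0.61 to 0.20) for Col3a1 and -0.25 (95% limits -0.85 to 0.35) for Col1a1. For the chains of the type I trimer, the RPKM ratio of Col1a1 to Col1a2 differed between genotypes by less than the spread. It was 1.83 ± 0.146 in control and 1.76 ± 0.133 (SD, n = 5) in Stat5Adipoq BAT. Col11a2, a chain of type XI collagen, had the smallest p among them, at 12.2 ± 3.77 CPM and 8.11 ± 2.55 CPM (SD, n = 5, log2 fold change -0.62, edgeR adjusted p = 0.234). Col11a1 had 9.7 counts per library on average and was at 0 in 3 libraries.

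Spread between mice differed between roles. The coefficient of variation of the summed CPM was 21.0% in control and 25.6% in Stat5Adipoq BAT for the fibrillar collagens, against 7.41% and 4.09% for the basement membrane collagens. Among the 5 controls, replicate 4 was highest for 23 of the 47 genes and replicate 1 was lowest for 20. Stat5Adipoq replicate 1 was the highest of its group for 26 genes and replicate 3 the lowest for 21. All 32 collagens together summed to 3648 ± 464 CPM in control and 3263 ± 428 CPM (SD, n = 5) in Stat5Adipoq BAT, a log2 ratio of -0.16. This is 0.293% to 0.442% of the counts of a library, and Col4a1, Col3a1, Col4a2, Col1a2 and Col1a1 made up 68.2% to 74.9% of it. The 14 other matrix genes without Svep1 summed to 2088 ± 133 CPM and 1865 ± 201 CPM (SD, n = 5). Both sums overlapped between the genotypes, with Stat5Adipoq replicate 1 inside the control range. For the collagens Stat5Adipoq replicate 5 was inside it too, at 3292 CPM against 3176 to 4422 CPM in control.

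The 12 markers of fibroblasts and adipose progenitors were all tested and none was called. They summed to 1358, 1540, 1508, 1829 and 1602 CPM in control and 1955, 1293, 1384, 1326 and 1365 CPM in Stat5Adipoq libraries. For 23 and 26 of the 47 genes, control replicate 4 and Stat5Adipoq replicate 1 were the highest of their groups. They were the highest in this marker sum too. Gsn, which encodes gelsolin and is not particular to fibroblasts, made up most of this sum, at 1536 CPM in control replicate 4 and 1624 CPM in Stat5Adipoq replicate 1. The 11 markers without it summed to 241 to 340 CPM in control and 264 to 331 CPM in Stat5Adipoq libraries, where Stat5Adipoq replicate 1 was still the highest of its group and control replicate 4 was not. No gene was called among 10 markers each of mural cells (summed level 1014 to 1108 CPM in control and 1024 to 1188 CPM in Stat5Adipoq libraries), endothelium (965 to 1082 CPM and 966 to 1176 CPM) and macrophages (175 to 234 CPM and 148 to 195 CPM). Log2 fold changes were below 0 for 4 mural, 1 endothelial and 9 macrophage markers (medians 0.01, 0.11 and -0.13). At an unadjusted edgeR p below 0.05 there were 0, 2 and 0 of them, where 15.2% of all genes reached it. None was called either among the 2 of 9 tendon and cartilage markers, the 11 skeletal muscle markers and the 9 of 10 liver markers that were tested. All 11 skeletal muscle markers nevertheless had log2 fold changes below 0 (median -5.54), each at an unadjusted edgeR p below 0.05. Their sums in control replicates 1, 3 and 5 were 60.9, 3853 and 309 CPM, above the Stat5Adipoq maximum of 44.6 CPM. Control replicates 2 and 4 lay within the Stat5Adipoq range. The 9 liver markers were also all below 0 (median -2.86), 2 of them at such a p. When control replicate 4 and Stat5Adipoq replicate 1 were left out, a choice made after the data were seen, the median log2 fold change of the 47 genes was -0.20 and 36 lay below 0. Leaving out control replicate 4 alone brought the median to -0.09 with 32 below 0, and leaving out Stat5Adipoq replicate 1 alone brought it to -0.22 with 37 below 0.

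Collagen VI forms beaded microfibrils around cells, and none of its 5 tested chains passed the test. Col6a1 measured 120, 141, 118, 174 and 141 CPM in control and 161, 140, 118, 123 and 124 CPM in Stat5Adipoq libraries (log2 fold change -0.06, 95% limits -0.31 to 0.19). Col6a2 had a log2 fold change of -0.08 (95% limits -0.29 to 0.13). Neither direction held when control replicate 4 was left out. The RPKM ratio of Col6a1 to Col6a2 was 1.90 ± 0.060 in control and 1.92 ± 0.067 (SD, n = 5) in Stat5Adipoq BAT. Both genes averaged 139 CPM in control, so this ratio reflects their merged exon lengths of 4380 and 8326 bases. Col6a3 and Col6a6 had log2 fold changes of -0.03 (95% limits -0.27 to 0.21) and 0.02 (95% limits -0.47 to 0.51). Col6a5, with 6.5 counts per library on average, measured 0.287, 0.817, 0.481, 1.36 and 0.457 CPM in control and 0.503, 0.128, 0.369, 0.330 and 0.160 CPM in Stat5Adipoq libraries, which overlapped. Its log2 fold change was -1.30 (95% limits -2.39 to -0.21, edgeR adjusted p = 0.237), with an unadjusted p of 0.024.

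Col28a1 was grouped with these microfibril collagens. It encodes a von Willebrand factor A domain collagen known from peripheral nerve. It measured 1.44, 3.63, 2.77, 5.76 and 2.01 CPM in control and 2.01, 0.898, 0.462, 0.551 and 1.04 CPM in Stat5Adipoq libraries, with 27.5 counts per library on average. Stat5Adipoq replicate 1 lay within the control range and the other 4 below it. The log2 fold change of -1.66 (95% limits -2.60 to -0.71) missed the threshold in edgeR (adjusted p = 0.070) and passed it in DESeq2 (adjusted p = 0.0073) and, in edgeR, without Stat5Adipoq replicate 1 (adjusted p = 0.029). The 9 Schwann cell markers summed to 141, 346, 218, 554 and 208 CPM in control and 244, 161, 129, 147 and 143 CPM in Stat5Adipoq libraries. The control libraries had the same order for these markers and for Col28a1, with replicate 4 highest and replicate 1 lowest, and Stat5Adipoq replicate 1 was the highest and replicate 3 the lowest of its group in both. All 9 markers were detected with log2 fold changes below 0, 7 at an unadjusted p below 0.05 and none past the adjusted threshold. Their part in the Col28a1 values was not tested.

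The remaining collagens gave no call. Among those that attach to fibrils, Col12a1 measured 34.9 ± 9.88 CPM in control and 25.9 ± 6.72 CPM (SD, n = 5) in Stat5Adipoq BAT, with a log2 fold change of -0.43 (95% limits -0.89 to 0.02), and Col14a1 had one of -0.11 (95% limits -0.69 to 0.46). Among the network, anchoring and transmembrane collagens, Col8a1 of vessel walls had a log2 fold change of -0.17 (95% limits -0.51 to 0.17) and Col23a1 one of 0.02 (95% limits -0.37 to 0.41). Col10a1, known from hypertrophic cartilage, had 6.0 counts per library on average and wide 95% limits of -2.31 to 0.52. The parts of depth and of spread between mice in these limits were not tested. In all, 9 of the 47 genes had under 50 counts per library on average. Of the other 38, 35 had log2 fold changes between -0.5 and 0.5.

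**Figure D4:**
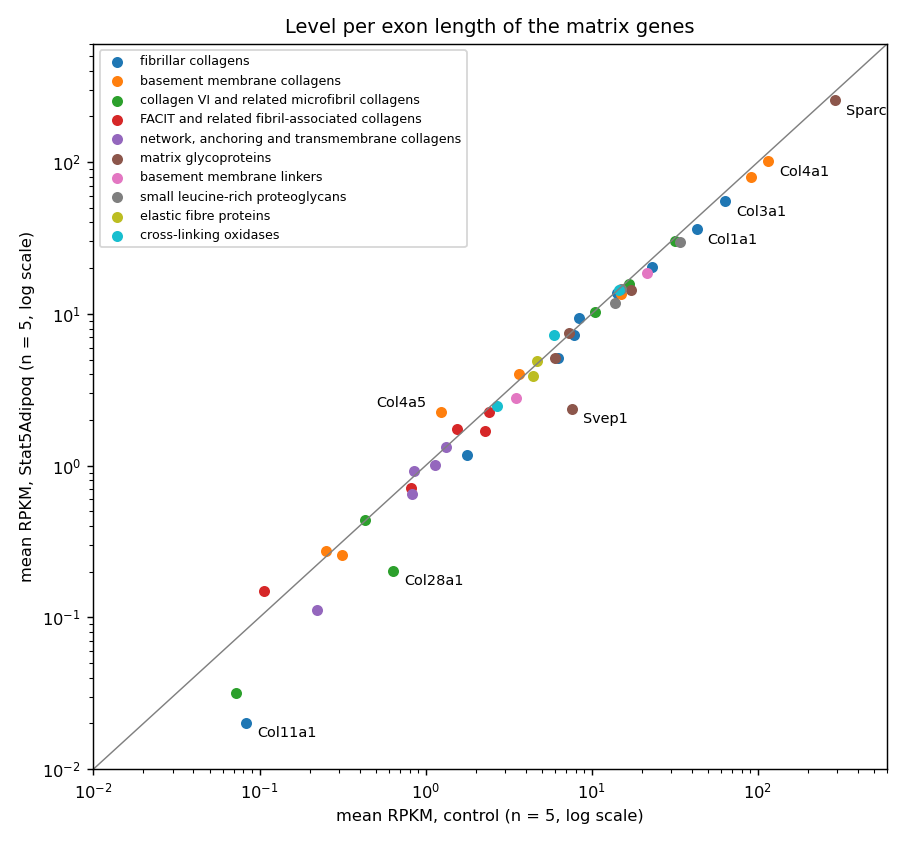
Mean RPKM in control (horizontal axis) and Stat5Adipoq BAT (vertical axis) for the 47 matrix genes, both on log scales with n = 5 libraries each, coloured by role, and the line of equal levels. Sparc lies at the top at 292 and 256 RPKM, Svep1 lies below the line at 7.63 and 2.37 RPKM, and Col4a5 lies above it at 1.23 and 2.25 RPKM.

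The small leucine-rich proteoglycans decorin, biglycan and lumican bind collagen fibrils. Dcn measured 151, 185, 209, 242 and 202 CPM in control and 249, 174, 132, 148 and 166 CPM in Stat5Adipoq libraries, where again Stat5Adipoq replicate 1 exceeded all controls. The log2 fold changes of Dcn, Lum and Bgn were -0.19, -0.22 and -0.04, and no interval excluded 0. The elastic fibre genes Fbn1 (fibrillin 1) and Eln (elastin) had log2 fold changes of 0.06 (95% limits -0.31 to 0.43) and -0.17 (95% limits -0.68 to 0.35). Of the exon bases of Fbn1, 20.1% are shared with an oppositely oriented gene.

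Lox, the lysyl oxidase that begins collagen cross-linking, was the gene other than Col4a5 with a higher value at an unadjusted p below 0.05. It measured 23.6, 23.4, 33.3, 31.8 and 28.8 CPM in control and 35.5, 31.6, 35.5, 32.9 and 37.1 CPM in Stat5Adipoq libraries. The upper 2 controls reached the lower Stat5Adipoq values. Its log2 fold change of 0.29 (95% limits 0.07 to 0.51) did not pass the test (edgeR adjusted p = 0.182). Loxl1, which acts on elastic fibres, had a log2 fold change of -0.03 (95% limits -0.37 to 0.31). Loxl2 had one of -0.14 (95% limits -0.46 to 0.19), and other genes share 45.8% of its 50-base words.

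Lists of 161 further matrix genes were examined in the same fit, of which 151 were tested. For comparison with the calls below, 1.31% of all genes tested were called lower and 1.4% higher. The 12 tested laminins and basement membrane proteoglycans had 1 gene called higher and none lower, with a median log2 fold change of -0.02. Lamc3, the laminin γ3 chain, measured 41.6, 33.2, 32, 30.6 and 34.0 CPM in control and 38.2, 49.2, 57.6, 55.9 and 52.2 CPM in Stat5Adipoq libraries. Stat5Adipoq replicate 1 lay below control replicate 1, and the other 4 lay above all controls. It had a log2 fold change of 0.56 (95% limits 0.32 to 0.81, edgeR adjusted p = 0.022). This call was lost without control replicate 2 or 4, without Stat5Adipoq replicate 3, 4 or 5, where the adjusted p reached 0.065, and with the replicate number as a block (adjusted p = 0.090).

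Among 37 other matrix glycoproteins and proteoglycans 2 were called lower and none higher, with a median of -0.09. Ccdc80, a secreted glycoprotein of adipose tissue, measured 68.8, 69.7, 57.7, 71.3 and 81.0 CPM in control and 43.0, 40.7, 44.2, 37.1 and 36.3 CPM in Stat5Adipoq libraries. Every Stat5Adipoq library was below every control. Its log2 fold change was -0.79 (95% limits -0.98 to -0.60, edgeR adjusted p = 0.00084). Smoc1, a SPARC-related calcium-binding protein, measured 118, 152, 117, 128 and 147 CPM in control and 91.3, 85.5, 95.1, 103 and 91.1 CPM in Stat5Adipoq libraries. The groups did not overlap, and the log2 fold change was -0.51 (95% limits -0.69 to -0.33, edgeR adjusted p = 0.0078).

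Of 31 matrix receptors 1 was called lower and 1 higher, with a median of -0.02. Ddr1, a receptor tyrosine kinase for collagen, measured 13.3, 15.9, 13.2, 16.2 and 15.4 CPM in control and 10.6, 5.58, 7.94, 9.03 and 7.67 CPM in Stat5Adipoq libraries. Its log2 fold change was -0.87 (95% limits -1.19 to -0.55, edgeR adjusted p = 0.0089) with no overlap. Itgb5, the integrin β5 chain, measured 54.2, 55.0, 46.2, 46.0 and 59.3 CPM in control and 70.9, 69.4, 65.4, 71.3 and 66.6 CPM in Stat5Adipoq libraries. All Stat5Adipoq libraries were above the controls (log2 fold change 0.40, 95% limits 0.24 to 0.56, edgeR adjusted p = 0.015).

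**Figure D5:**
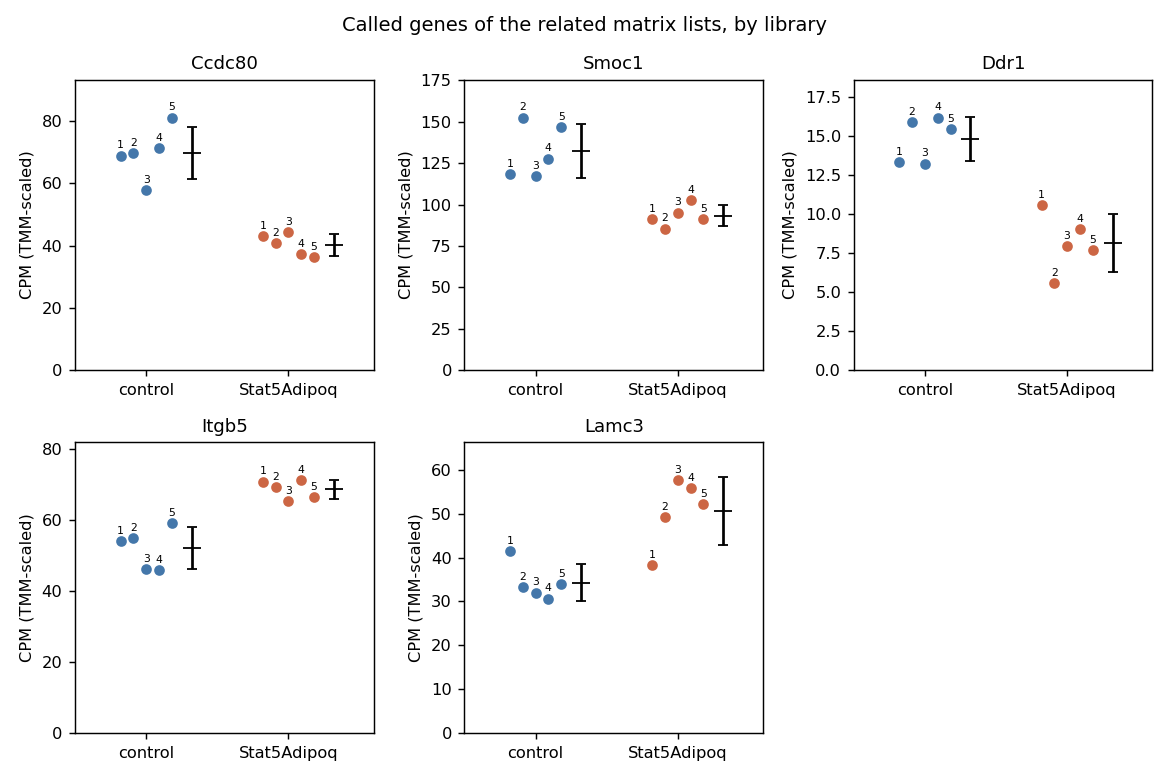
CPM scaled by the TMM method (vertical axes, from 0) in each library of control and Stat5Adipoq BAT for the 5 genes called in lists of related matrix genes, with replicate numbers and the mean ± SD (n = 5). The groups are separate for Ccdc80, Smoc1, Ddr1 and Itgb5 and overlap for Lamc3, where Stat5Adipoq replicate 1 measured 38.2 CPM and control replicate 1 measured 41.6 CPM.

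No gene was called in edgeR among 23 genes of collagen processing (median log2 fold change -0.07), 28 matrix proteases and inhibitors (median -0.10) and 20 genes of TGF-beta signalling (median 0.0059). At an unadjusted p below 0.05 there were 2, 5 and 1 such genes, where 15.2% of all genes reached it. DESeq2 called none of the genes of these lists either. The smallest p-values belonged to P4hb, the β subunit of prolyl 4-hydroxylase (log2 fold change -0.20, edgeR adjusted p = 0.127), to the matrix metalloproteinase gene Mmp28 (0.33, edgeR adjusted p = 0.189) and to the receptor gene Tgfbr1 (-0.12, edgeR adjusted p = 0.300).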

How the data were processed

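BAT of 5 control and 5 Stat5Adipoq mice was profiled with 1 library per mouse. The authors aligned single-end reads of 50 bases to GRCm38 (mm10) with STAR 2.5.0b, counted them over exons with featureCounts 1.5.0-p1 and deposited counts per gene without normalization. Their table of the comparison, which holds fold changes and p-values from DESeq2 1.16.1, was used only for gene symbols. Genotype and replicate came from the labels, and every column of counts was assigned to a sample. Strand handling in counting was not stated.

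The genes and lists were chosen with earlier results of these data known. Genes were kept with a size factor normalized row sum above 45 (13568 genes). edgeR 4.0.16 (quasi-likelihood F test, TMM, no covariate, R 4.3.3) compared genotypes, with Benjamini-Hochberg adjustment over all tested genes and a threshold of 0.05. Single genes were compared by exact two-sided permutation tests over 252 assignments, and sums over the 47 genes were given without a p. CPM are TMM-scaled. RPKM divide them by the merged length of all GENCODE M21 exons of a gene and serve only to compare levels between genes. Ratios of RPKM depend on this length and do not give the proportions of chains. Counts were simulated for 13568 genes, with 200 changed by 1 on the log2 scale. edgeR recovered 96% of these and 4.48% of its calls were false, DESeq2 97.5% and 10.6%, and limma-voom 96% and 4%. Smaller changes were not simulated, so these rates do not apply to Col4a1, Col4a2 and Postn, which only DESeq2 called. Genes with fewer than 50 counts per library on average were not changed, and false calls were not split by count level. The rates therefore do not decide for genes with few counts such as Col28a1.

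Depth was 8488129 to 19514904 counts per library, and some genes with few counts, such as Col10a1 and Col28a1, had wide limits. The lowest chi-square per degree of freedom between any 2 of the 10 libraries was 5.31, so no library was a copy of another. Named with values were Svep1, called genes of the 47, those without overlap, and in each role the 2 with the highest RPKM and the one with the smallest p, and in related lists up to 6 called genes or otherwise the one with the smallest p. Other genes named, such as Col4a3, Col6a5, Itga9, Lrrn4 and Gsn, were chosen after their values were seen or for their role.

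Lists covered collagen processing, matrix proteases, laminins, other glycoproteins, receptors and TGF-beta signalling, and markers of brown and white adipocytes, fibroblasts, mural cells, endothelium, macrophages, skeletal muscle, Schwann cells, mesothelium, tendon and cartilage, and liver. Alternatives were DESeq2 1.42.0, limma-voom 3.58.1, DESeq2 size factors, library size only, no filter, filterByExpr, a replicate block and leaving out each library. Leaving out control replicate 4 and Stat5Adipoq replicate 1 together was added after the data were seen. Same-numbered libraries deviated from their genotype means with correlations of -0.22 to 0.11, so the numbers were not treated as pairs. GENCODE M21 also gave positions and overlaps, RefSeq GRCm38.p6 the promoter windows.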

Additional observations from a re-analysis of the deposited data

Results flagged for a closer look

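For each of the 47 genes, the highest and lowest library of each genotype were compared with the other 4 by Dixon's test, which gave 98 groups with those of the 2 summed levels. It singled out 8 values, where chance gives about 1 in 20, or 4.9. Stat5Adipoq replicate 1 was far above the rest of its group for 5 collagens. Col3a1 was at 826 CPM there against 428 to 539 CPM, Col5a1 at 80.0 CPM against 53.6 to 61.2 CPM, Col5a2 at 64.1 CPM against 43.2 to 47.7 CPM, Col16a1 at 7.46 CPM against 3.75 to 4.71 CPM, and Col11a1 at 0.922 CPM against 0 to 0.240 CPM. The summed fibroblast markers were also highest in this library, at 1955 CPM against 1293 to 1384 CPM. Most of that gap was Gsn, at 1624 CPM against 979 to 1101 CPM, and the 11 markers without it summed to 331 CPM against 264 to 314 CPM. Their part in these values was not tested.

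Control replicate 3 was far below the other controls for Svep1, at 64.2 CPM against 128 to 143 CPM, and for Col20a1, at 5.89 CPM against 8.17 to 8.86 CPM. The skeletal muscle markers of this library, at 3853 CPM in sum, exceeded those of the other controls, and their part was not tested. Control replicate 4 held 0.758 CPM of Col9a3, against 0.274 to 0.363 CPM in the other controls, at 6.2 counts per library on average.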

How the results depend on the processing

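Svep1 and Col4a5 passed the threshold in all 10 fits that left out 1 library and in the 7 other planned fits, with log2 fold changes of -1.89 to -1.55 for Svep1 (adjusted p at most 0.020) and 0.77 to 0.96 for Col4a5 (at most 0.028). The count of the 47 genes called lower was 5 with DESeq2 (Col28a1, Col4a1, Col4a2, Postn and Svep1), 2 with filterByExpr (Postn and Svep1), which tested 43 of them, and 1 to 2 without single libraries. It was 2 without control replicate 4 and Stat5Adipoq replicate 1 together, where Itgb5 lost its call (adjusted p = 0.063). Without control replicate 3 Postn was called as well (adjusted p = 0.016). Genes called in related lists numbered 5, and 9 with DESeq2, which added Lamb1, Podn, Prelp and Tnc, and 4 to 7 without single libraries.

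The log2 ratio of summed collagens was -0.23 to -0.090 without single libraries, and that of the other matrix genes without Svep1 was -0.22 to -0.12, with -0.23 and -0.22 without Stat5Adipoq replicate 1. Without both libraries the latter was -0.20. Genes not called changed sign near 0. Col23a1 was at -0.00063 with library size only and -0.00068 with the replicate block, and Loxl1 at 0.030 without both libraries. Without single libraries the log2 fold changes ran from -0.12 to 0.057 for Bgn, -0.30 to 0.0064 for Col14a1, -0.13 to 0.11 for Col23a1, -0.13 to 0.037 for Col6a1, -0.14 to 0.0069 for Col6a2, -0.047 to 0.17 for Fbn1 and -0.14 to 0.091 for Loxl1. The causes were not tested. The replicate block reduced the calls over all genes from 368 to 273 and left 1 of the 47 lower and 1 higher, and only replicate 2 correlated best with its own number (0.106). Scaling moved the median of all genes to -0.024 at most. Some genes under 50 counts per library on average had wide limits, and the part of depth in this was not tested.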
